A study of Strongylocentrotus purpuratus with 17 samples.

Results

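In purple sea urchin (Strongylocentrotus purpuratus) embryos, 12726 genomic regions showed the divergent nascent transcription of promoters and enhancers at 8 h, 12 h and 20 h of development and were not called at 72 h. They are named early regions here. To find them, the deposited lists of elements of the 4 stages were joined, and intervals that overlapped by at least 1 bp on a scaffold were merged into 75451 union regions. A region was present at a stage if an element of that stage lay in it, and early regions were present at the first 3 stages and absent from the last. They made up 16.9% of the union. Early regions were chosen by the stages at which their elements had been called, so this pattern is a description and supports nothing by itself.

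The study followed nascent transcription by PRO-seq, in which polymerases engaged on the DNA extend their transcripts in nuclei supplied with biotinylated nucleotides, and the tagged RNA is read. Elements had been called by dREG, a classifier that recognises regulatory elements from paired divergent transcription. All embryos were of the genotype given as Wild and were grown at 15 °C. Of 17 libraries in 6 groups, 13 stood behind the 4 lists: 2 at 8 h from 1 biological replicate, 4 at 12 h from 3, 5 at 20 h from 4, and 2 at 72 h from 2. Stages were taken from the sample titles, because the tissue label names the hatching blastula for every library. By their titles the 12 h and 20 h libraries were reanalysed from earlier work. Not analysed here were the quick PRO-seq libraries, made at 72 h and from the red spherule cells of adults.

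Active promoters and enhancers of animals are both transcribed outwards in opposite directions from a short open stretch of DNA. Promoters lie at gene starts, while enhancers lie inside introns or between genes and can act over a distance. In the sea urchin the zygotic genome takes over from maternal RNA during cleavage. The blastula then hatches, skeletogenic cells move inwards, the gut invaginates, and a feeding pluteus larva forms.

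Each stage had a single list, which the labels tie to all its PRO-seq libraries. Values below therefore carry no replicate error, and no test between stages was made. The lists gave positions only, so the read depth behind an element is unknown. Intervals on shares are 95% Wilson intervals, which cover counting error only. Whole embryos were used, so fewer cells using an element and less transcription per cell cannot be told apart. The 72 h list held 4425 elements against 56158 at 8 h, 30570 at 12 h and 37796 at 20 h. Absence of a region at 72 h, lower depth at 72 h and a different set of libraries cannot be told apart.

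Most regions found at all of 8 h, 12 h and 20 h were early regions. There were 16391 such regions, and 77.6% of them were early regions by the rule, while the other 3665 were called at 72 h too and are named all-stage regions here. Elements in early regions were 23.3% of the 8 h list, 42.5% of the 12 h list and 34.9% of the 20 h list. They therefore took a larger share of the 12 h list, the shortest of the 3. Larger or similar classes of the union were 8 h alone with 26248 regions and 20 h alone with 12639.

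Few early regions lay close to the boundary of the rule at 72 h. The early region closest to a 72 h element lay 10 bp from it, followed by regions at 60, 90 and 100 bp. Only these 4 lay within 100 bp, 94 lay within 500 bp and 224, or 1.76%, within 1 kb. The median distance to a 72 h element was 56490 bp. Long distances are likely for any region with a list of 4425 elements, and those of other regions are not given here. On the other side, the smallest overlap of a 72 h element with an all-stage region was 50 bp and the next was 60 bp, with a median of 570 bp.

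Early regions lay at gene ends more often than the union did, and less often than all-stage regions. Genes came from RefSeq's annotation of Spur_5.0, the assembly of the lists, which gave neither scaffold nor strand in the table used. Gene order was therefore placed on 21 scaffolds by the match of gene ends to 8 h elements outside early regions, so every gene position here rests on an inferred scaffold. These scaffolds held 11891 early regions. A region was at a gene end if it overlapped the 500 bp on either side of a gene's start or stop, which the table cannot tell apart. Of the early regions, 47.1% (46.2 to 48.0) were at a gene end, against 23.6% of all union regions. The value for all-stage regions was 74.8% (73.4 to 76.2). Regions called at 8 h alone, 12 h alone and 20 h alone were there in 12.7%, 14.2% and 12.0% of cases, and those shared by exactly 2 of the early stages in 20.1% to 23.4%. The order of early regions between the regions of fewer stages and those of all stages was thus well outside counting error. Elements of the other classes were used to place the genes, and placement by the elements of early regions alone gave the same scaffold for 21 of 21 runs of genes.

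The other early regions were spread through genes and the space between them. Inside a gene but away from its ends lay 24.3% (n = 2885) of early regions, against 37.5% of the union and 11.8% of all-stage regions. Between genes lay 28.7% (27.9 to 29.5), against 39.0% and 13.4%. Wider regions meet a gene-end window more easily, so the midpoint alone was used as well. The midpoint lay in the window for 41.6% of early regions, 68.3% of all-stage regions and 19.3% of the union, which left the order as it was. A region that touched the ends of at least 2 genes was found in 4.02% of early regions (478 regions), 15.3% of all-stage regions and 2.17% of the union.

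**Figure D1:**
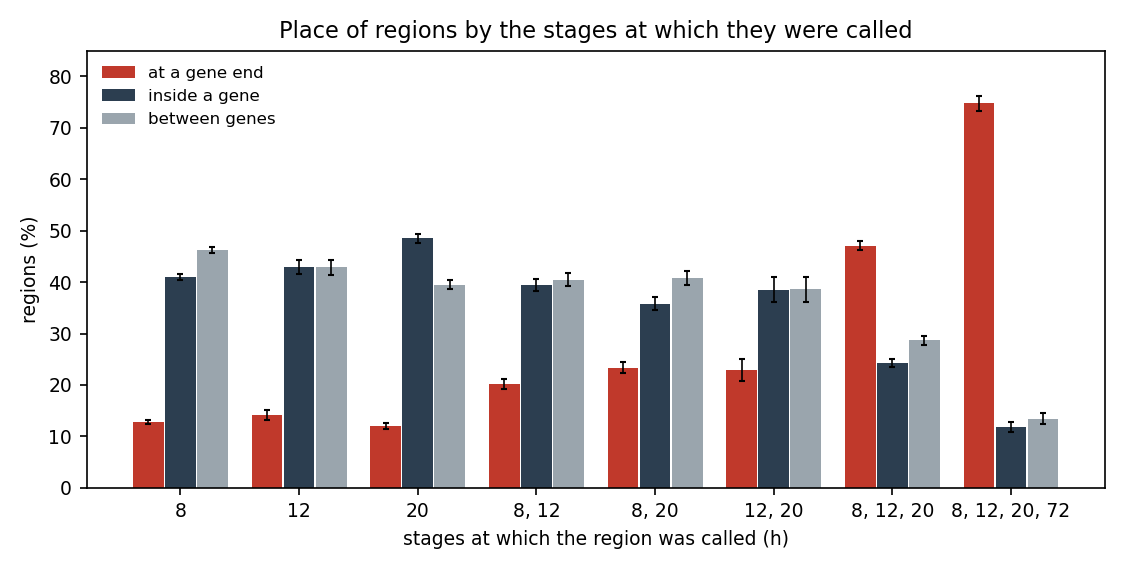
Share of regions (%) at a gene end, inside a gene and between genes, for each set of stages at which a region was called, with 95% Wilson intervals as error bars. Regions of 8, 12 and 20 h stand at 47.1% at gene ends, between the 12.0% to 23.4% of regions with fewer stages and the 74.8% of regions of all 4 stages.

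Elements in early regions were wider than stage-specific elements and narrower than those of all-stage regions. A wider element overlaps elements of other stages more easily, so the overlap rule itself favours this order. The part of the rule in it was not tested. The median width in early regions was 850 bp at 8 h (interquartile range 660 to 1110), 740 bp at 12 h (590 to 990) and 700 bp at 20 h (540 to 950). All-stage regions had medians of 1140, 1050 and 1050 bp. Elements called at 8 h, 12 h or 20 h alone had medians of 550, 540 and 560 bp. Gene-end elements were the widest within early regions, with medians of 990, 860 and 830 bp at 8 h, 12 h and 20 h. Inside genes the medians were 770, 680 and 660 bp, and between genes 770, 670 and 630 bp.

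Most early regions kept 1 element at each stage, and that element became narrower from 8 h onwards. Exactly 1 element at each of the 3 stages was found in 11880 early regions, 93.4% (92.9 to 93.8). In 846 regions, 6.65%, a stage held more than 1 element, which happened at 8 h in 340 regions, at 12 h in 276 and at 20 h in 441. Among the 11880 regions, the 12 h element was narrower than the 8 h element in 66.6%, with a median difference of -80 bp. The 20 h element was narrower than the 12 h element in 56.0%, with a median difference of -30 bp. From 8 h to 20 h the element was narrower in 69.8% (68.9 to 70.6), with a median difference of -110 bp. All-stage regions gave nearly the same at the first step, narrower in 66.4% with a median of -80 bp. At the second step they were narrower in 49.6% (47.9 to 51.3) with a median difference of 0 bp, against 55.1% to 56.9% as the interval in early regions. Widths depend on how each list was called, and the part of depth in these differences was not tested.

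**Figure D2:**
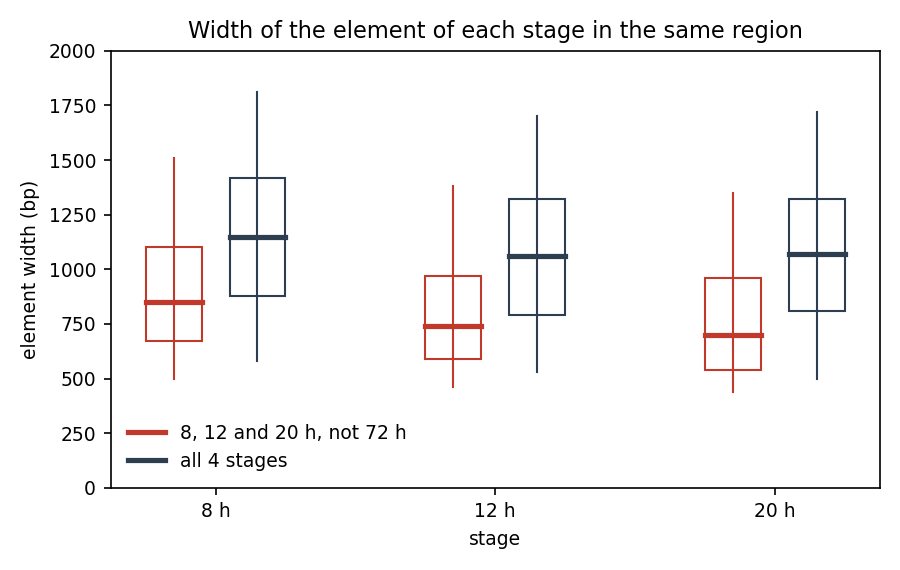
Width of the element (bp) at 8, 12 and 20 h in regions with 1 element a stage, for early regions and for regions called at all 4 stages. Thick lines are medians, boxes the quartiles and whiskers the central 90% of regions, and the early regions' median goes from 850 to 740 to 700 bp.

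The widest element of an early region was the 8 h element in 53.4% of the 11880 regions, the 12 h element in 22.6% and the 20 h element in 21.2%. Narrowing at both steps was seen in 3803 regions, 32.0%, and widening at both steps in 963, 8.11%. Elements of a region overlap by the rule, which limits how far they can lie apart, so their positions are given as a description. Midpoints shifted by a median of 60 bp from 8 h to 12 h, 65 bp from 12 h to 20 h and 70 bp from 8 h to 20 h, and by 230, 235 and 255 bp at the 90th percentile. All 3 elements had a stretch in common in 99.1% of regions, with a median length of 570 bp (interquartile range 470 to 750). This shared core took up a median of 64.6% of the region, against 73.4% in all-stage regions, where its median length was 900 bp.

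The extremes of width show what the merging of stages can join. Among the 5 widest early regions was a region of 3600 bp inside LOC579509 (NW_022145614.1, 1863461 to 1867060). It joined 8 h elements of 1010 and 750 bp and a 20 h element of 750 bp through a 12 h element of 3560 bp. Another of 3170 bp between genes (NW_022145603.1, 16167841 to 16171010) held 2 elements at 8 h and single elements of 2270 bp at 12 h and 2170 bp at 20 h. The other 3 of the widest measured 3120, 3100 and 3100 bp. The 5 narrowest measured 390, 390, 400, 410 and 410 bp and had 1 element at each stage. Of these, 4 were on scaffolds with genes, and none of the 4 lay at a gene end. The narrowest region in a gene lay inside LOC752750 (NW_022145612.1, 23566991 to 23567380), with 380 bp at each of the 3 stages.

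A region of the first 3 stages was more often absent at 72 h when its 12 h element was narrow and when it lay away from gene ends. On the scaffolds with genes, the regions of the first 3 stages were split into 5 groups of equal size by the widest 12 h element. A wider region meets a 72 h element more easily under the overlap rule, so width enters absence through the rule itself. The part of the rule in the shares below was not tested. Absence at 72 h went from 90.8% (89.8 to 91.8) in the narrowest group, 350 to 590 bp, through 87.6%, 81.9% and 69.5% to 54.7% (53.0 to 56.5) in the widest, 1180 to 3670 bp. At gene ends the shares were 84.9%, 83.3%, 77.0%, 63.9% and 50.3% from the narrowest group to the widest. Inside genes they were 93.9%, 88.9%, 85.8%, 81.0% and 76.2%, and between genes 94.0%, 91.4%, 87.2%, 82.2% and 66.4%. Within each width group, therefore, regions at gene ends were the least often absent at 72 h. Over all widths 67.7% (66.7 to 68.7) of gene-end regions were early regions, against 87.3% (86.1 to 88.4) inside genes and 87.7% (86.6 to 88.7) between genes.

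**Figure D3:**
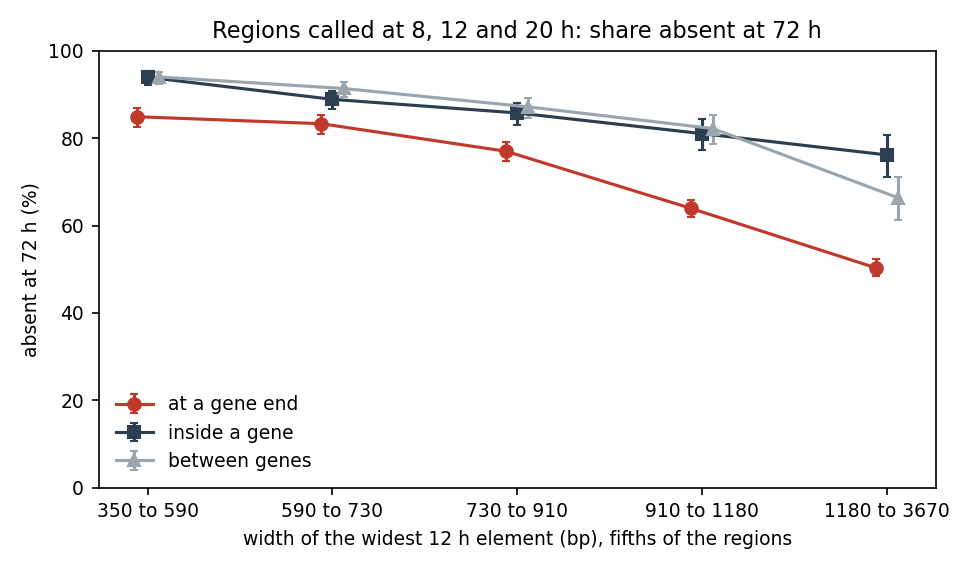
Share (%) of the regions called at 8, 12 and 20 h that were absent at 72 h, by 5 groups of the width of the widest 12 h element (bp) and by place, with 95% Wilson intervals. The gene-end line falls from 84.9% to 50.3% and lies below the lines for regions inside genes (93.9% to 76.2%) and between genes (94.0% to 66.4%).

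Early regions were close neighbours of other regions about as often as the union as a whole. Another region lay within 1 kb of 29.1% (28.3 to 29.9) of early regions, against a background of 27.9%. Early regions inside genes had such a neighbour in 35.9% of cases, against 29.2% of all regions inside genes and 44.9% of all-stage regions there. At gene ends the shares were 25.3%, 27.5% and 29.6%. The median distance was 2260 bp to any other region, 16490 bp to the nearest early region and 66455 bp to the nearest all-stage region. The nearest region was one of 8 h alone for 30.0% of early regions, another early region for 19.9% and one of 20 h alone for 16.6%. Over the union the nearest was an early region in 17.1% of cases.

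Each of the 21 scaffolds with genes carried early regions. They made up 14.2% to 19.5% of the regions of a scaffold, and their density was 9.58 to 19.3 per Mb, with 14.4 per Mb over all 21. The highest density was on NW_022145614.1 and the lowest on NW_022145606.1. The densest stretches of at most 50 kb each held 9 early regions, on NW_022145603.1 from 13617361 to 13665240 and on NW_022145605.1 from 21080741 to 21130190. The former holds 3 TRNAM-CAU genes, which encode a methionine transfer RNA, and LOC582205. A stretch with 8 early regions among 9 regions in all began in EGFIII, an EGF-repeat gene (NW_022145597.1, 20698491 to 20745780), and it held no all-stage region.

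A region of any kind lay at an end of 56.2% of the protein-coding genes placed, and early regions marked part of these. Of 24774 protein-coding genes placed, 5424 had an early region at a gene end, 21.9% (21.4 to 22.4), and 2967, or 12.0%, had an all-stage region there. These counts follow the sizes of the sets, since early regions are more numerous, and per region the order was the reverse. At the end of a protein-coding gene lay 43.5% of early regions and 70.6% of all-stage regions. Both kinds were found at the ends of 58 genes. A 72 h element lay at an end of 75 of the 5424 genes through another region. The rule bars such elements from early regions, and its part in this number was not tested. At least 2 early regions at the ends were found for 110 genes. Among genes of all kinds the share with an early region at an end was 19.9%.

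Transfer RNA genes, read by RNA polymerase III, were marked about as often as protein-coding genes. An early region lay at an end of 232 of 954 transfer RNA genes, 24.3% (21.7 to 27.1), and since such genes lie close together these were 178 regions. Genes of long noncoding RNAs had such a region in 267 of 3231 cases, 8.26% (7.36 to 9.26). Genes of the small nuclear RNAs, which serve in splicing, had it in 25 of 256 cases and microRNA genes in 2 of 53. A region of any kind lay at an end of 70.2% of transfer RNA genes and 56.2% of protein-coding genes. For long noncoding, small nuclear and microRNA genes it was 33.8%, 33.2% and 28.3%. Of genes with any such region, 34.6% of transfer RNA and 39.0% of protein-coding genes had an early region. For the other kinds it was 24.4%, 29.4% and 13.3%, in the order above.

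Longer genes had an early region at an end more often. With protein-coding genes split into 5 groups by length, the share was 8.23% in the shortest and 29.8% in the longest, where gene length reached from 23974 to 300967 bp. The median length was 14276.5 bp for genes with an early region at an end, 15071 bp for genes with an all-stage region there and 10226.5 bp for all protein-coding genes.

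In the neighbourhood of genes, meaning the gene body and 10 kb on either side, early regions were common but few per gene. At least 1 early region had its midpoint in the neighbourhood of 11416 protein-coding genes, 46.1%, and they were 19.8% of all regions counted in neighbourhoods. The mean was 0.670 a gene and the median 0. There were 7580 genes with 1 early region, 2815 with 2, 788 with 3 and 164 with 4. The highest number, 7, was reached by LOC100888702, LOC579450 and LOC582205. At LOC100888702 (NW_022145596.1, 12439180 to 12542998) 6 of the 7 lay in the gene body, among 14 regions in all and with no all-stage region.

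Among genes without an early region at an end, those with an all-stage region there had early regions nearby most often. An early region lay in the neighbourhood of 46.9% (45.1 to 48.7) of the 2909 genes with an all-stage region alone at their ends. The share was 35.9% (34.7 to 37.2) of the 5584 genes with regions of fewer stages at their ends and 24.1% (23.3 to 24.9) of the 10857 genes with no region there. Median gene lengths of these classes were 15148, 10345.5 and 7139 bp, and the part of length in the difference was not tested. Regions of any kind were also most numerous in the first class, with means of 4.8, 4.1 and 2.1 a neighbourhood. These means include regions at the ends. The means for early regions were 0.674, 0.476 and 0.304. Whether early regions were more common than the number of regions would give was not tested. Of the 2885 early regions inside genes, 23.8% (22.3 to 25.4) lay in a gene with an all-stage region at an end, against 19.2% of all regions inside genes. A further 28.8% lay in a gene with an early region at an end, against 29.1% of all regions, and 24.2% in a gene with no region at either end, against 27.5%. Early regions inside genes thus lay in genes of every kind of end in proportions near those of the union, with the all-stage class slightly ahead.

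Named developmental genes were examined through 14 gene lists, matched by symbol. Most genes of this annotation carry only a locus number, so 90 list genes were placed. Of the 90, 19 had an early region at an end, 28 had an all-stage region at an end and 59 had an early region in the neighbourhood. Over all protein-coding genes the corresponding shares were 21.9%, 12.0% and 46.1%. The median number of early regions in the neighbourhood was 1 for list genes and 0 for all protein-coding genes, but list genes also had more regions of other kinds. Early regions were 15.8% of the regions around list genes, below the 19.8% around all protein-coding genes. Lists share genes, so a gene can count in several.

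**Figure D4:**
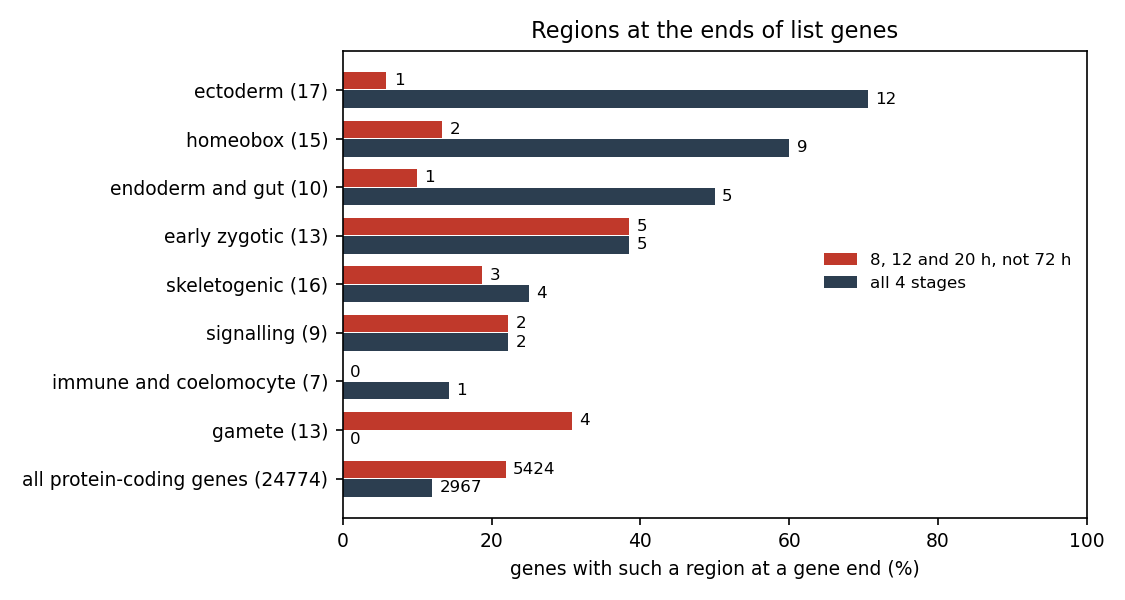
Share (%) of placed genes with an early region (red) or a region of all 4 stages (dark) at a gene end, for 8 gene lists of at least 7 genes and all protein-coding genes, with the number of genes placed in parentheses and the number marked beside each bar. Ectoderm and homeobox genes have 1 and 2 genes with an early region and 12 and 9 with a region of all stages, while gamete genes have 4 and 0. Over all protein-coding genes the shares are 21.9% and 12.0%.

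Of the 15 symbols in the cell cycle list 4 were placed, and 3 of these genes had an early region at an end, against 21.9% of all protein-coding genes. Chk1, the DNA damage checkpoint kinase, had an early region of 1070 bp at its lower end (NW_022145594.1, 34604431 to 34605500), with elements of 930, 1070 and 880 bp at 8 h, 12 h and 20 h. Beyond its upper end, just outside the 500 bp window, lay an all-stage region (34626451 to 34628080) with 72 h elements of 460 and 620 bp. The gene of cdk4, the kinase partner of D-type cyclins, had elements of 990, 840 and 830 bp at its upper end. The replication licensing gene Cdc6 had elements of 1000, 1480 and 980 bp in the region at its lower end, and a second early region further out. For comparison, the medians of gene-end elements of early regions were 990, 860 and 830 bp, so these widths lay on both sides of them. CycA, encoding cyclin A, had an all-stage region at its end and 2 early regions in its neighbourhood. Early regions were 6 of the 19 regions around these 4 genes, against 19.8% around all protein-coding genes.

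Genes of gametes and the germ line had an early region at an end in 4 of 13 cases and an all-stage region in none, against 21.9% and 12.0% of all protein-coding genes. Vasa, a DEAD-box RNA helicase of germ cells, had a gene-end region of 1880 bp (NW_022145609.1, 8066021 to 8067900) with elements of 1790, 1160 and 1490 bp at the 3 stages. It had 3 early regions among 7 regions in its neighbourhood. Nanos2, of the Nanos family of translational repressors, had an early region of 1870 bp that covered the whole gene, with elements of 850 and 940 bp at 8 h, 890 bp at 12 h and 1200 bp at 20 h. REJ genes are named for the sperm receptor for egg jelly. REJ8 had 4 early regions, 1 at its lower end (NW_022145615.1, 28111561 to 28112490) and 3 inside the gene, and the gene-end element was 820, 740 and 730 bp wide. REJ3 had a narrower gene-end element of 490, 450 and 490 bp. At least 1 early region lay in the neighbourhood of 11 of the 13 genes, and early regions were 26.7% of the regions there, against 46.1% and 19.8% for all protein-coding genes. The exceptions were REJ9 and rej2, with 6 and 7 regions and no early region.

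Early zygotic genes, which are switched on during cleavage, had an early region at an end in 5 of 13 cases and an all-stage region in 5. The shares of all protein-coding genes were 21.9% and 12.0%. Neighbourhoods of the early zygotic genes held a median of 2 early regions. Early regions were 20 of the 105 regions there, against 19.8% around all protein-coding genes, so they were not in excess. VEB4, a very early blastula gene, had an early region at each end and no all-stage region. It was moved into this list from the immune list after its values were seen, and is among the 5 genes counted. The region at its lower end (NW_022145607.1, 33695351 to 33697520) held elements of 1870, 1910 and 400 bp at 8 h, 12 h and 20 h, so the element was narrow at 20 h. SoxB2, an HMG-box transcription factor gene, had both kinds of region. Its early region, from 22024301 to 22025130 on NW_022145597.1, had elements of 730, 730 and 530 bp, and its all-stage region had 1110, 1020, 870 and, at 72 h, 920 bp. Soxd1, of the same family, had a gene-end region of 1430, 1660 and 1300 bp. SoxB1 had all-stage regions at its ends and 1 early region nearby.

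Wnt8, a ligand gene of canonical Wnt signalling in the early endomesoderm, shows both kinds of region side by side. The all-stage region lay inside the gene (NW_022145595.1, 3237581 to 3239210), with elements of 1210, 1240, 1070 and 580 bp at 8 h, 12 h, 20 h and 72 h. An early region at the upper end (3239441 to 3240910) followed it closely and had elements of 1050, 840 and 1470 bp. Early regions of 580 and 670 bp flanked the gene on either side. In the signalling list FGFR, a fibroblast growth factor receptor gene, also had an early region at an end, with elements of 700, 720 and 1380 bp. Of the 9 signalling genes 2 had an early region at an end and 2 an all-stage region. The shares of all protein-coding genes were 21.9% and 12.0%, so the number with an early region was near the background. Early regions were 9.68% of the regions around the signalling genes, against 19.8% around all protein-coding genes.

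Skeletogenic genes serve the mesenchyme that secretes the skeleton of the larva. An early region lay at an end of 3 of 16, and an all-stage region at an end of 4. The shares of all protein-coding genes were 21.9% and 12.0%, so the number with an early region was near the background. COLP3alpha and COLP4alpha, collagen genes that lie next to each other, had 5 and 3 early regions in their neighbourhoods, of which 2 are the same. At COLP3alpha the gene-end region was 2380 bp wide (NW_022145597.1, 20068551 to 20070930), with elements of 1020 and 1240 bp at 8 h, 1380 bp at 12 h and 1380 and 560 bp at 20 h. At COLP4alpha it had elements of 810, 660 and 720 bp (20059111 to 20059920). Neither gene had a 72 h element in its neighbourhood. SM30A, a spicule matrix gene, had elements of 760, 790 and 510 bp in its gene-end region. The regulators ets1, dri and snail and the spicule matrix gene SM50 had all-stage regions at their ends, and P16, SM29, SM37, PM27, msp130, erg and snail had no early region in their neighbourhood.

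**Figure D5:**
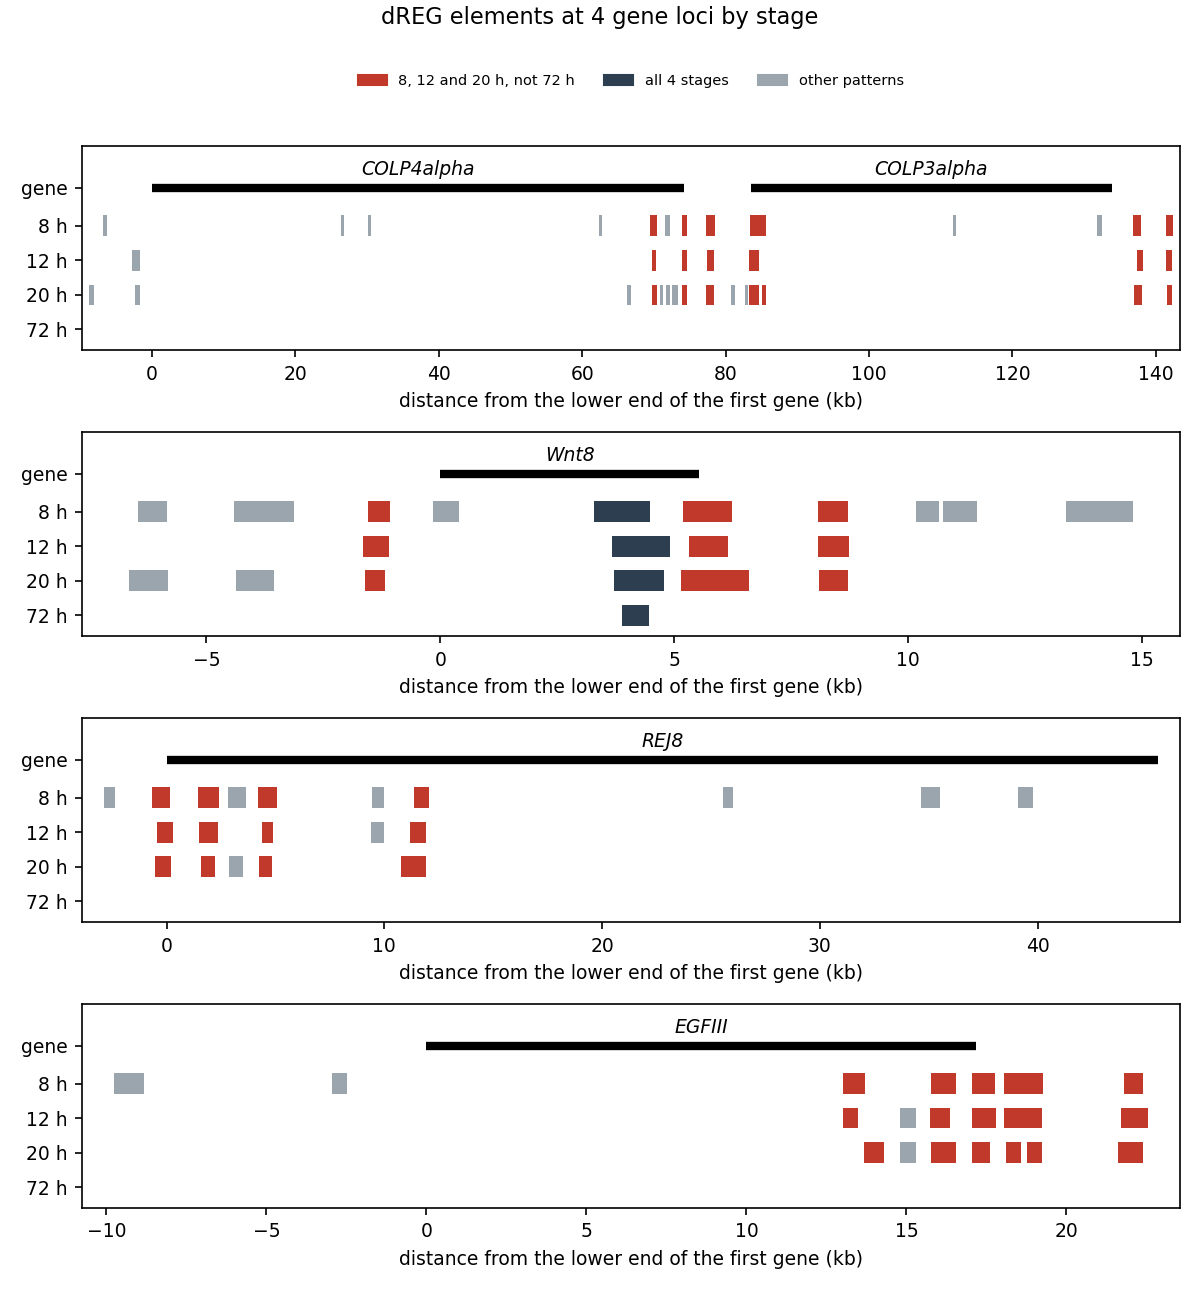
Elements of each stage along 4 loci, as distance (kb) from the lower end of the first gene, with genes as black bars and elements coloured by the stages of their region (red for early regions, dark for regions of all 4 stages, grey for the others). The loci were chosen after their values were seen: Wnt8 has 3 early regions and an all-stage region, and the others have early regions and no 72 h element.

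Genes of the ectoderm, of the gut and of the homeobox family had all-stage regions at their ends more often than early regions. Of all protein-coding genes 21.9% had an early region at an end and 12.0% an all-stage region. The lists below held 4 to 17 placed genes, so 1 gene can move a share widely. In the ectoderm list 1 of 17 genes, Lim1, had an early region at an end and 12 had an all-stage region. Lim1, a LIM homeobox gene, had elements of 930, 500 and 980 bp there (NW_022145605.1, 1126311 to 1127290) and a further early region of 1710 bp inside the gene. Tbx2/3, a T-box factor gene, had 4 early regions in its neighbourhood among 16 regions, with an all-stage region at its end. In the homeobox list 2 of 15 genes, Lim1 and hox1, had an early region at an end and 9 an all-stage region, and hox1 had elements of 640, 590 and 670 bp. In the endoderm and gut list 1 of 10 genes, Wnt8, had an early region at an end and 5 an all-stage region. Of the 4 genes of the apical plate and nervous system placed, none had an early region at an end and 3 had an all-stage region. Early regions were 12.3% of the regions around ectoderm genes, 13.7% around homeobox genes, 11.0% around endoderm and gut genes and 12.1% around apical genes, each below the 19.8% of all protein-coding genes.

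Pigment cell and other mesoderm genes had an early region at an end in 1 of 5 cases, near the 21.9% of all protein-coding genes. Early regions were 4 of the 40 regions around these 5 genes, against 19.8% around all protein-coding genes. The early region at an end lay at gcm, which encodes a transcription factor of pigment cells, from 34772621 to 34773790 on NW_022145598.1. It had elements of 850, 1010 and 1090 bp, so it was widest at 20 h. GATAc, which encodes a zinc finger transcription factor, had 17 elements in its neighbourhood at 20 h, yet 1 of its 17 regions was an early region. Delta and erg had 8 and 4 regions and no early region. Of the 4 forkhead genes, fkh1 had an early region at an end, with elements of 910, 740 and 900 bp. FoxJ1, a regulator of motile cilia, had 2 early regions among 9 regions in its neighbourhood.

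Immune and coelomocyte genes, whose products are known mainly from cells of the adult body cavity, had no early region at an end in 7 genes and an all-stage region at 1, duox1. The shares of all protein-coding genes were 21.9% and 12.0%. VEB4, which had an early region at each end, was moved out of this list after its values were seen, so the absence rests on that move. Early regions were 19.1% of the regions around the 7 genes, near the 19.8% around all protein-coding genes. They lay nearby in 5 of the 7, against 46.1% of all protein-coding genes. Bf, a complement factor B gene, had 3 of them, all in the gene body, and no 72 h element. SRCR12, a scavenger receptor gene, and duox1, a dual oxidase gene, had 2 each, and c3, the complement component gene, and AMAS3, an amassin gene, 1 each. Of 4 histone genes, none had an early region at an end, and H2A and H4 had none in their neighbourhoods.

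Outside the lists, the named genes with most early regions nearby were EGFIII and TRNAK-UUU, with 5 each. EGFIII (NW_022145597.1, 20685467 to 20702645) had its 5 early regions around its upper end among 8 regions, with no 72 h element. Its gene-end element measured 720, 750 and 550 bp at 8 h, 12 h and 20 h. At TRNAK-UUU, a lysine transfer RNA gene (NW_022145595.1, 5984616 to 5984688), all 5 regions of the neighbourhood were early regions. The element at that gene measured 630, 590 and 530 bp. SpZ12-1, a zinc finger gene, had 4 early regions among 6 regions, and the homeobox gene Hbox7 had 4 among 11 with an all-stage region at its end. SHR3 had 4 among 14, each inside the gene. The other 5 with 4 early regions were transfer RNA genes, for glycine, asparagine and proline and 2 for serine that share their regions.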

How the data were processed

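PRO-seq was run on whole embryos, and the authors deposited 1 list of dREG elements a stage, which the labels tie to all PRO-seq libraries of that stage. The deposited values are positions in bp on the Sp 5.0 genome, per the labels, with no score and no read number. The aligner, the caller's settings and the pooling of libraries are not stated in the labels or lists used.

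The lists were read with pandas 2.3.3 under Python 3.11.15, with starts written from 1. All positions were multiples of 10 bp. Intervals overlapping by at least 1 bp were merged. Runs of at least 900 genes of the RefSeq table were placed on the scaffold whose 8 h elements outside early regions met most gene ends, and the best scaffold stood 1.41 to 2.97 times above the next. In all 30064 of 33490 genes were placed. Gene ends stood in for gene starts, since strand was not used here. The scripts were tested on simulated data.

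The regions and the gene lists were chosen with earlier results of these data known. VEB4 was moved from the immune to the early zygotic list after its values were seen. Genes were named if a list gene had an early region at an end, or, outside the lists, as the 10 with an informative symbol and most early regions nearby. The 5 widest and 5 narrowest regions were named too. Other genes in the text are list genes, or lie in the stretches with most early regions or widest regions, and were chosen after their values were seen. No p-value was computed, and sequence motifs were not analysed here.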

Additional observations from a re-analysis of the deposited data

How the results depend on the processing

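Of 49 values recomputed under other settings, 36 lay within the interval of the reported value (or, for counts, within 1.5 times) and 13 outside it. These values cover early regions alone, so they cannot show whether an order against other classes of region would change. The number of early regions ran from 10859 to 12726, and genes with such a region at an end from 4489 to 5831. With intervals up to 100 bp apart merged, the 8 h median width was 840 bp, 89.6% of regions had 1 element a stage and 25.9% had a neighbour within 1 kb. With 12 h elements as units and an overlap of 50% of both elements, these were 840 bp, 97.8% and 26.4%, with a 20 h width of 720 bp and a gene-end share of 45.6%. The gene-end share was 45.3% with a window of 250 bp, 50.4% with 1000 bp and 41.6% by midpoint. An early region lay in the neighbourhood of 65.6% of list genes, 34.4% with the gene body only and 93.3% with 50 kb either side. The wider or narrower area searched accounts by construction for the direction of the window and neighbourhood values. Taking 12 h elements as units fixes 1 element at 12 h, and merging across 100 bp leaves no neighbour within 100 bp. The part of these settings in the other values was not tested. Merging intervals that only touch, chosen after seeing the data, gave 12725 regions. The planned motif shares were not run. No paired analysis was possible because each stage had a single list. The unknown depth, above all at 72 h, limits every statement on absence.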

Other observations

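Protein-coding genes with different kinds of region at their ends also differed in what lay around them. The 5366 genes with an early region and no all-stage region at their ends had a mean of 4.45 regions of any kind in the neighbourhood, and the 2909 with an all-stage region alone had 4.80. The 5584 genes with regions of fewer stages at their ends had 4.12. These means include the regions at the ends themselves, and median gene lengths were 14305, 15148 and 10345.5 bp. Of the 10857 genes with no region at their ends, of median length 7139 bp, 78.7% had a region of any kind in the neighbourhood. Regions of 8 h alone lay near 61.8% (60.5 to 63.1) of the genes with an early region at an end, 60.2% (58.4 to 62.0) of those with an all-stage region, 73.3% (72.2 to 74.5) of those with regions of fewer stages and 53.2% of those with none. Regions of 20 h alone lay near 38.7% to 41.4% of the first of these groups, as the interval gives it, 43.9% to 47.6% of the second, 41.3% to 43.9% of the third and 19.7% to 21.2% of those with none.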
